A study of Mus musculus with 9 samples.

Results

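The genes of the cartilage collagens, aggrecan and the SOX trio comprised Col2a1, Col9a1, Col9a2, Col9a3, Col11a1, Col11a2, Acan, Sox9, Sox5 and Sox6. They were chosen by name as the rows of the deposited table that carry these symbols, and all 10 were found once among its 22054 genes. RNA came from the fracture callus of male C57BL/6J mice labelled as 7 weeks old, collected on day 7 after the left femur was cut and pinned, and the labels call the tissue bone. Of the 9 libraries, 3 came from mice given the STING inhibitor H-151 (750 nmol), 3 from mice given the STING activator SR-717 (30 mg/kg) and 3 from mice given PBS, each as 200 μl injected intraperitoneally every day for a week. All mice were fractured and injected, so no group shows unfractured bone, and SR-717 and H-151 were each given at 1 dose. Each library is called a replicate biosample in the labels, which do not say whether RNA of several mice was pooled, and the p-values measure only the spread between these libraries.

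Hyaline cartilage gets its strength from thin fibrils of type II collagen, which also hold type XI collagen in their core and type IX collagen on their surface. Aggrecan, a large proteoglycan, fills the space between the fibrils and binds water. SOX9 switches on these matrix genes in chondrocytes, and the related factors SOX5 and SOX6 work alongside it. In a healing fracture, chondrocytes first build a soft callus of such cartilage, which bone later replaces.

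A library held between 16987398 and 23272480 expected counts, an estimate of the reads per gene that need not be whole. Counts scaled to library size after TMM normalization are called CPM. On the first principal component of log2 CPM (46.6% of the variance) 2 libraries stood apart, SR-717 replicate 1 at 100.6 and PBS replicate 1 at 38.8, and the rest lay between -28.8 and -4.03. These are also the libraries in which the 7 matrix genes were lowest, so results that rest on them are given with and without them. The 8 markers of osteoblasts summed to 22607 to 45560 CPM, most of it from Col1a1 (21135 to 41331 CPM), which other connective tissue cells also express. The more specific markers Ibsp, Bglap and Sp7 lay at 709 to 3695, 62.3 to 369 and 59.6 to 322 CPM, each lowest in SR-717 replicate 1. Runx2 and Dmp1 were not lowest there, at 99.5 and 152 CPM against 76.3 and 105 CPM in PBS replicate 1. The 8 markers of skeletal muscle summed to 4382 to 25332 CPM, while 10 keratinocyte and hair follicle genes summed to 1.33 to 21.8 CPM. In bulk tissue, fewer chondrocytes and less cartilage RNA per chondrocyte cannot be told apart.

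The 10 genes made up 0.0953% to 1.80% of a library's counts. Their share was 0.268%, 1.80% and 1.10% in PBS replicates 1, 2 and 3, 1.36%, 1.18% and 0.691% in the H-151 libraries, and 0.0953%, 1.03% and 0.663% in the SR-717 libraries. The 2 lowest shares were both in replicates numbered 1, from the PBS and the SR-717 group, and the H-151 replicate of that number was among the 3 highest.

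Col2a1, which encodes the single chain of type II collagen, was the most abundant of the 10 in 8 of the 9 libraries in TPM, the transcript scale that corrects for gene length. It reached 336, 4317 and 1931 TPM in PBS replicates 1 to 3, 3015, 2527 and 1093 TPM in H-151 replicates 1 to 3, and 17.1, 2023 and 986 TPM in SR-717 replicates 1 to 3. The means were 2194 ± 2003 TPM in PBS, 2212 ± 999 TPM in H-151 and 1009 ± 1003 TPM in SR-717 (SD, n = 3 each). All 3 groups overlapped, and SR-717 replicate 1 lay far below every other library. Between the highest and the lowest library Col2a1 differed 211-fold in CPM, which placed the SD of its log2 CPM 30th among 14294 genes.

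The chains of type XI collagen, which sets the width of the fibrils, were the steadiest of the collagens. Col11a1 was measured at 296, 666 and 640 TPM in PBS, 645, 491 and 464 TPM in H-151 and 137, 513 and 517 TPM in SR-717 replicates 1 to 3. Col11a2 was measured at 144, 569 and 402 TPM in PBS, 366, 297 and 294 TPM in H-151 and 78.3, 346 and 382 TPM in SR-717. Their highest library exceeded their lowest by 4.24-fold and 6.00-fold in CPM, against 211-fold for Col2a1. Col11a1 was second to Col2a1 in the 8 libraries that Col2a1 led and was first in SR-717 replicate 1, where the order of the 10 genes was Col11a1, Col11a2, Acan, Col2a1 and then the rest.

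Type IX collagen is built from 1 chain each of Col9a1, Col9a2 and Col9a3 and coats the fibrils. Col9a1 was at 30.9, 325 and 238 TPM in PBS, 249, 243 and 128 TPM in H-151 and 5.73, 203 and 86.9 TPM in SR-717 replicates 1 to 3. Col9a2 was at 39.6, 585 and 284 TPM in PBS, 348, 316 and 152 TPM in H-151 and 4.48, 252 and 157 TPM in SR-717. Col9a3 was at 29.2, 414 and 195 TPM in PBS, 259, 283 and 109 TPM in H-151 and 1.79, 179 and 99.4 TPM in SR-717. The 3 chains kept the library order of Col2a1 closely, with ranges of 54.2-fold, 110-fold and 195-fold in CPM. In the annotation, an exon of Col9a3 shares 234 bases with Tcfl5 on the opposite strand, and Col9a3 was the only one of the 10 genes with a count that was not whole.

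Acan, the gene of the aggrecan core protein, was at 104, 549 and 334 TPM in PBS, 554, 444 and 187 TPM in H-151 and 30.7, 312 and 288 TPM in SR-717 replicates 1 to 3. Its range of 17.2-fold in CPM lay between those of the type IX and the type XI chains. SR-717 replicate 1 and PBS replicate 1 were again the lowest, and all groups overlapped.

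The transcription factors were expressed below the 7 matrix genes in every library but SR-717 replicate 1, where Col9a3 was under Sox9 and Sox6. Sox9 was at 10.4, 16.0 and 13.9 TPM in PBS, 17.1, 17.6 and 7.37 TPM in H-151 and 3.25, 8.72 and 9.07 TPM in SR-717 replicates 1 to 3. Sox6 was at 6.50, 8.87 and 3.74 TPM in PBS, 11.5, 10.2 and 5.00 TPM in H-151 and 2.36, 6.44 and 6.12 TPM in SR-717. Sox5 was at 0.997, 1.12 and 1.22 TPM in PBS, 1.92, 1.90 and 8.64 TPM in H-151 and 0.772, 0.648 and 0.527 TPM in SR-717. In TPM Sox9 was above Sox6 in every library, and Sox5 was the lowest of the 10 genes in 8 libraries, H-151 replicate 3 being the exception. In CPM, which is not corrected for gene length, that library had 10.3 for Sox5, 18.3 for Sox9 and 24.7 for Sox6. Sox6 was above Sox9 in CPM in SR-717 replicates 1 to 3 as well (12.1, 27.2 and 22.2 against 8.06, 20.4 and 20.1). In PBS replicate 1, where Col2a1 was 12.3-fold below PBS replicate 2, the fall of Sox9 was small by comparison, since the whole PBS range of Sox9 was 1.49-fold in CPM.

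**Figure D1:**
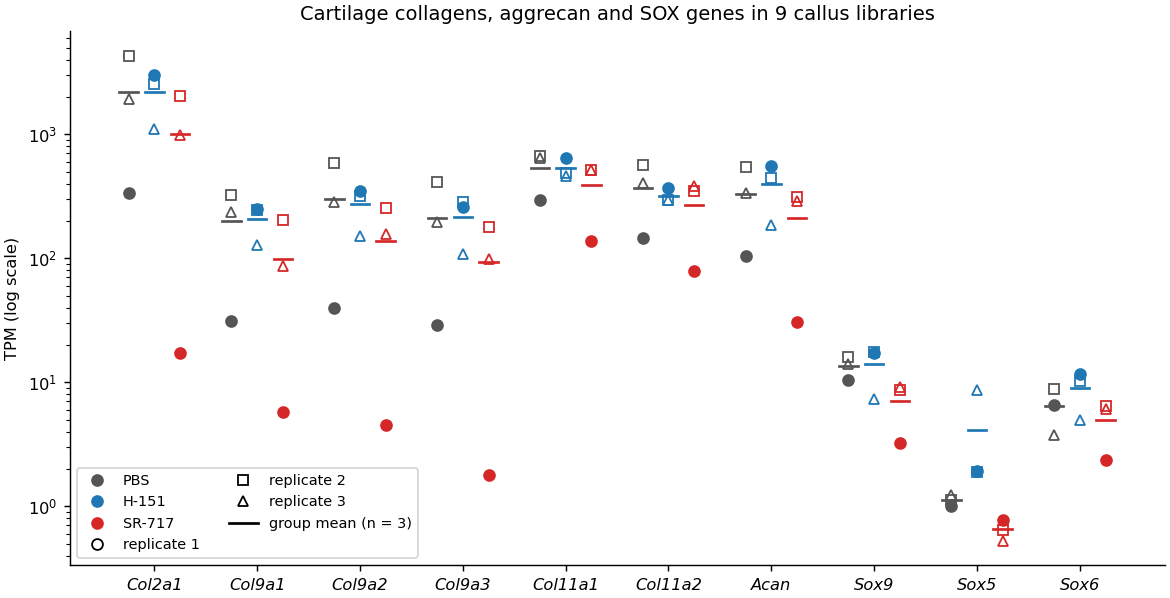
TPM (log scale) of each gene in each library, with PBS in grey, H-151 in blue and SR-717 in red, replicate 1 as filled circles, and horizontal lines at the mean of 3 libraries. Replicate 1 of SR-717 lies lowest for every gene but Sox5, at 17.1 TPM for Col2a1 against 137 TPM for Col11a1.

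In pairs of genes the chains of 1 collagen were compared within each library, where depth cancels. The TPM of Col9a1 was 0.780 of that of Col9a2 in the median library (range 0.553 to 1.28), and that of Col9a3 was 0.711 of Col9a2 (0.399 to 0.895). Col11a1 exceeded Col11a2 in all 9 libraries, by 1.59 in the median and 1.17 to 2.05 in the range. These ratios moved by 1.75-fold to 2.31-fold over the libraries, while the single type IX chains moved by 54.2-fold or more in CPM. The ratios to Col2a1 were less steady. Acan stood at 0.176 of Col2a1 in the median library but at 0.309 in PBS replicate 1 and 1.80 in SR-717 replicate 1. Col11a2 stood at 0.208 of Col2a1 in the median library and at 4.59 in SR-717 replicate 1.

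Among the factors, Sox6 was 0.269 to 0.739 of Sox9 in TPM (median 0.674), and Sox5 was 0.0581 to 0.238 of Sox9 in 8 libraries and 1.17 in H-151 replicate 3. In that library the gene length that the TPM of Sox5 assumed was 0.401 of its median library, which raises this ratio. Over 7 ratios and 3 comparisons, 21 two-sided exact permutation tests gave a smallest p of 0.1, which is the lowest that 3 libraries against 3 allow, and no adjusted p under 0.7. Groups were separate for Sox5 to Sox9 between H-151 and PBS, for Sox6 to Sox9 between SR-717 and PBS, and for Col9a3 to Col9a2 between SR-717 and H-151.

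**Figure D2:**
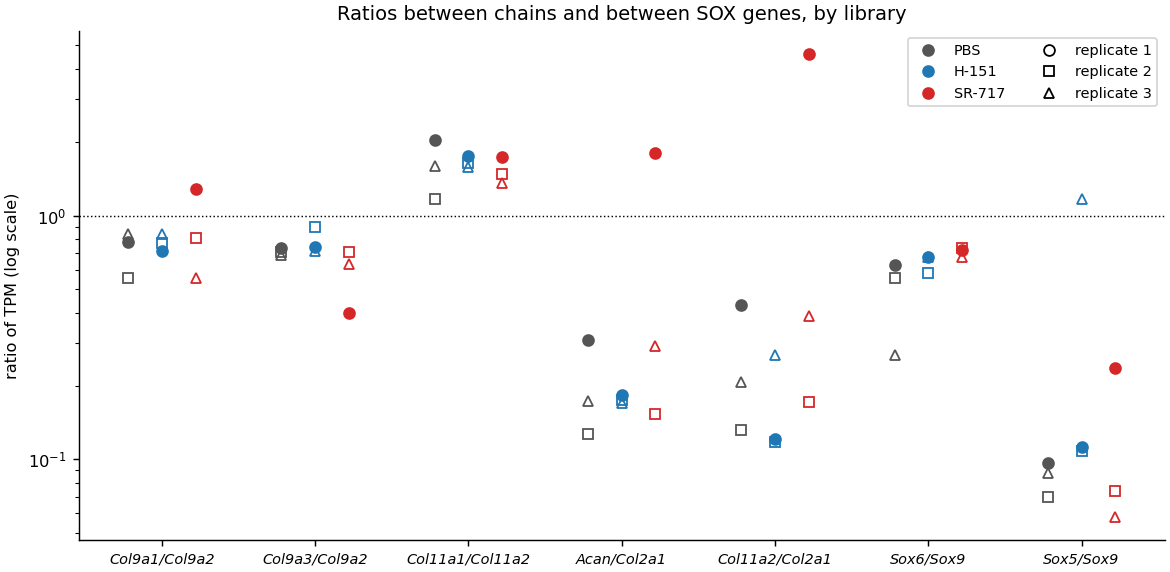
Ratio of the TPM of 2 genes (log scale, dotted line at 1) in each library, with PBS in grey, H-151 in blue and SR-717 in red and replicate 1 filled. Ratios between chains of types IX and XI lie between 0.399 and 2.05, whereas Acan to Col2a1 and Col11a2 to Col2a1 reach 1.80 and 4.59 in replicate 1 of SR-717.

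The matrix genes rose and fell with Col2a1 from library to library. Pearson's r of log2 CPM with Col2a1 over 9 libraries was 1.00 for Col9a3, 0.99 for Col9a2 and Col9a1 and 0.98 for Acan, with Spearman's rho of 0.97, 0.98, 0.92 and 0.97. The exact permutation p, adjusted over 9 correlations, was 5.0e-05, 5.0e-05, 8.3e-05 and 0.00011 for r, and 0.00050, 0.00045, 0.0030 and 0.00050 for rho. Without SR-717 replicate 1 and PBS replicate 1, the libraries farthest from the median of Col2a1, r was 0.98 for Col9a3, 0.98 for Col9a2, 0.95 for Col9a1 and 0.88 for Acan over 7 libraries. With each group's mean removed, r over the 9 libraries was 0.98 to 1.00 for these 4 genes. The 2 farthest libraries remain in this measure, which was also 0.91 for Col11a1 and 0.94 for Col11a2. It therefore cannot show that a relation held within each group apart from them.

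For type XI collagen and the factors the relation was looser. Col11a1 gave r = 0.91 and rho = 0.70 (adjusted exact permutation p = 0.0048 and 0.056) and Col11a2 gave r = 0.93 and rho = 0.52 (0.0048 and 0.18). Without the 2 farthest libraries r was 0.35 for both, so these relations rest on those libraries. Sox9 gave r = 0.89 and rho = 0.78 (adjusted exact permutation p = 0.0059 and 0.026) and kept r = 0.77 over 7 libraries. Sox6 gave r = 0.84 and rho = 0.90 (adjusted exact permutation p = 0.0053 and 0.0037), and r was 0.45 over 7 libraries, so the linear relation rests on the 2 libraries as well. Sox5 showed no relation that passed the test (r = 0.32, rho = 0.38, adjusted exact permutation p = 0.37 and 0.31) and had r = -0.03 over 7 libraries.

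**Figure D3:**
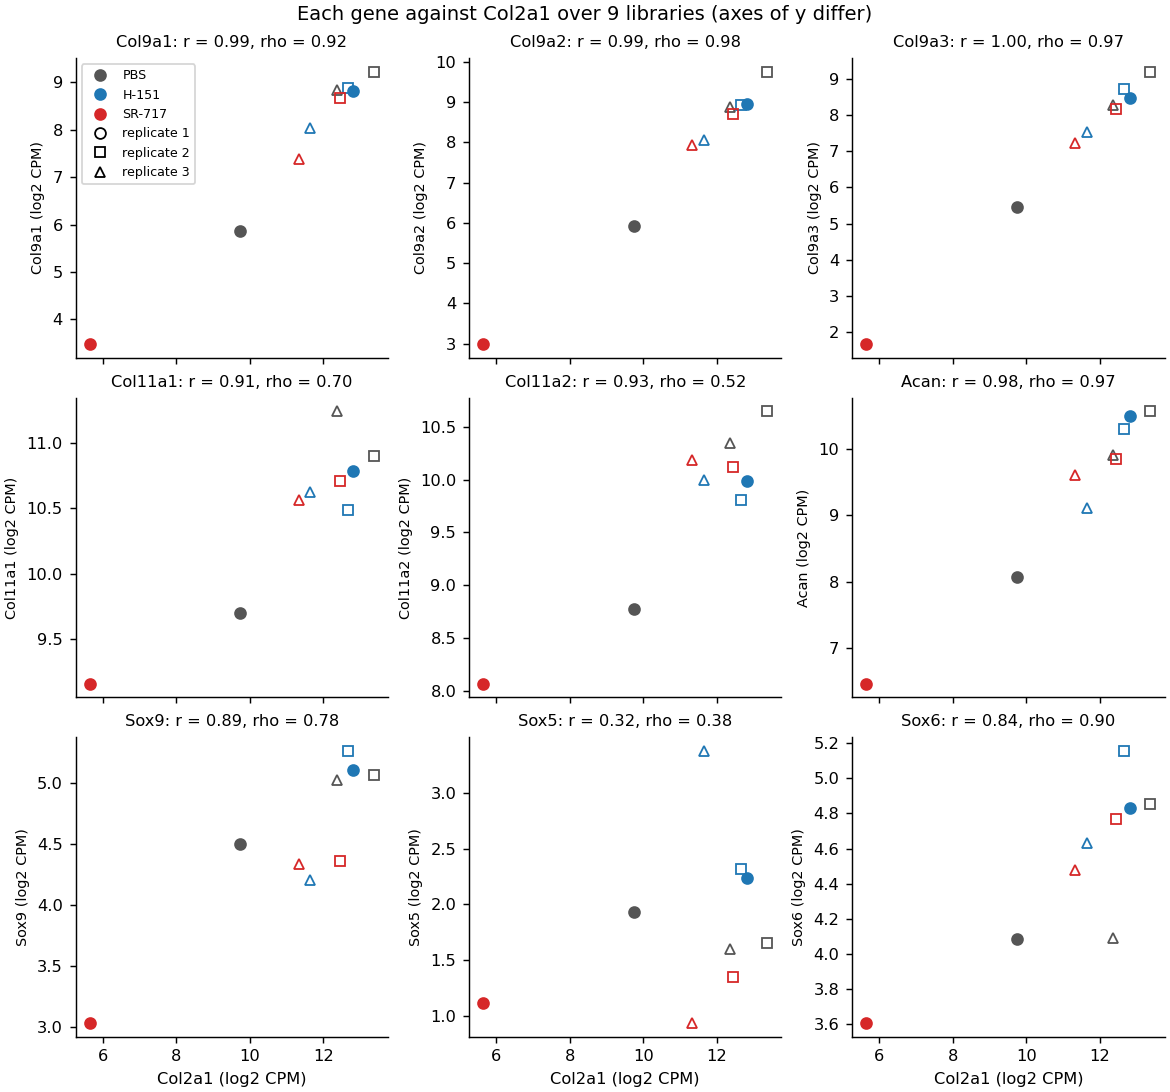
Log2 CPM of 9 genes (vertical, scale differs by panel) against log2 CPM of Col2a1 (horizontal) in 9 libraries, PBS in grey, H-151 in blue, SR-717 in red, replicate 1 filled. The type IX chains and Acan lie along a line with r of 0.98 to 1.00, while the type XI chains spread widely once replicate 1 of SR-717 and of PBS are set aside (r = 0.35), and H-151 replicate 3 stands alone for Sox5.

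Over 13499 genes averaging at least 1 CPM, those with the highest r with Col2a1 outside the 10 were Cnmd (0.997), Scube1 (0.996), Ppp1r1b (0.995), Ihh (0.992), Snorc (0.991), Wscd2 (0.990), Col10a1 (0.987), Dis3l2 (0.986), AA986860 (0.986) and Meltf (0.985). Cnmd encodes chondromodulin of avascular cartilage, Ihh encodes the signal made by prehypertrophic chondrocytes, and Col10a1 encodes the collagen of hypertrophic chondrocytes. Over the 7 libraries that exclude the 2 farthest, r stayed between 0.80 for Meltf and 0.99 for Scube1. The genes with the highest r with Sox9 were Swsap1 (0.986), Adgrg2 (0.961) and Nkd1 (0.958), those with Sox6 were Hoxc11 (0.989), Bpgm (0.986) and Ccdc92b (0.975), and those with Sox5 were Clasp2 (0.911) and Sh3yl1 (0.909). These are the top ranks of a search, given as a description of 9 libraries.

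The windows of 250 bases before the annotated starts were read for 7 of the 10 genes (13 windows, RefSeq, build GRCm38.p6), with Sox9, Col2a1 and Col9a3 not among them. Shown are both starts of Col9a1 and that of Acan, whose RNA followed Col2a1 closely, those of Col11a1 and Col11a2, which followed it more loosely, and 1 of the 6 starts of Sox6 for contrast. They are written 5′ to 3′ on the gene's strand, and capitals mark GGGCGG and TATAAA as well as the SOX-type letters AACAAT and AACAAAG on either strand.
Col9a1, first start, chr1:24177360-24177609, plus strand: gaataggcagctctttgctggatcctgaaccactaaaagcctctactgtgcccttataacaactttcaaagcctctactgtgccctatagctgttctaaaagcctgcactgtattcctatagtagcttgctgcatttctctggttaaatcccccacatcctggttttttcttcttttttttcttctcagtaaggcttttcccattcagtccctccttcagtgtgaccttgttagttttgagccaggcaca
Col9a1, second start, chr1:24194953-24195202, plus strand: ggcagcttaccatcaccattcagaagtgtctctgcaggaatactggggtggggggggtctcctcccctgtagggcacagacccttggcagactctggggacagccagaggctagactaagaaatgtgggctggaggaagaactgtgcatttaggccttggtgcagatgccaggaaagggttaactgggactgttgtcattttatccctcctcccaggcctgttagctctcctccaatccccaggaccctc
Acan, chr7:79052976-79053225, plus strand: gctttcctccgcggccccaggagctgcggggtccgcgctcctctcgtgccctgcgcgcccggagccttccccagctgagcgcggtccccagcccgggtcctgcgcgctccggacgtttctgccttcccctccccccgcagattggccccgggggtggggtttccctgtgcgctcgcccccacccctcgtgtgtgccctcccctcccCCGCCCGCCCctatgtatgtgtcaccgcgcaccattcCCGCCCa
Col11a1, chr3:114030290-114030539, plus strand: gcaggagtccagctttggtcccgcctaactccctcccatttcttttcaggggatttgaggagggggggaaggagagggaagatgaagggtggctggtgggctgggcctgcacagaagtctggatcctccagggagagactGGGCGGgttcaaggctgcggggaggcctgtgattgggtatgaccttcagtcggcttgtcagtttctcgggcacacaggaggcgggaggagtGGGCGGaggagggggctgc
Col11a2, chr17:34038888-34039137, plus strand: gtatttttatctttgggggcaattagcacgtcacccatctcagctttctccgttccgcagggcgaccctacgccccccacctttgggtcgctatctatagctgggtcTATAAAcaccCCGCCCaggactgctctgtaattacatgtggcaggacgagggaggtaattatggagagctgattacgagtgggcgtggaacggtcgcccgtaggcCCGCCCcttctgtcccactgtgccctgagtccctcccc
Sox6, chr7:115824711-115824960, minus strand: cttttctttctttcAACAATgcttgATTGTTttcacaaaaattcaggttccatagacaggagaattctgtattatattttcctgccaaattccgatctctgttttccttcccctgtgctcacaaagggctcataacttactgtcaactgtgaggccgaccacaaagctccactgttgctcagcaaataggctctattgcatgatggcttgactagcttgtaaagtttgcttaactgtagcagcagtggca

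Both Col9a1 windows hold none of these letters. The window of Col9a2 is not printed, as 181 of its bases lie in annotated exons, and it holds CCGCCC and then GGGCGG, 26 and 14 bases before the start. The RNA of both genes followed Col2a1 with r = 0.99. GGGCGG or its complement CCGCCC occurs in the Acan, Col9a2, Col11a1 and Col11a2 windows, in 5 of the 13 windows of these genes and in 32.7% of all 32851 windows of this length. TATAAA or TTTATA is in the Col11a2 window 143 bases before the start, in 2 of the 13 windows and in 12.4% of all. AACAAT or its complement ATTGTT occurs only in the Sox6 window shown, where the pair lies 236 and 225 bases before the start, against 9.42% of all windows. AACAAAG or CTTTGTT is in 3 of the 13 windows, all of Sox6, against 5.03% of all windows. The share of G and C bases was 43.6% and 56.0% for the Col9a1 starts, 60.4% for Col9a2 and 74.4% for Acan (median of all windows 52.4%), so genes that moved together did not share the base composition of these windows. Distances are counted from the RefSeq starts. In GENCODE M21 the genes Acan and Col11a2 begin further downstream, at bases 79053483 and 34039437, and none of their transcripts there held the bases checked after the RefSeq start. A match marks letters and not a bound site, and the enhancers of these genes lie outside the windows.

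The comparison of SR-717 with PBS asks how the activator changed the callus. All 10 genes had a lower fitted level under SR-717 (log2 fold change below 0, as for 47.8% of all 14070 genes tested), with a median of -0.74 against 0.01 for all genes. None of the 10 passed the study's thresholds in edgeR, an unadjusted p under 0.05 with a change of at least 1.5-fold, which 0.519% of all genes passed. For Col2a1 the log2 fold change was -1.03 with a standard error of 1.44, and for Col9a3 it was -1.10 with a standard error of 1.42. Replicate 1 was the lowest library of both groups for every matrix gene.

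Deviations from the group means correlated over genes by 0.14 to 0.65 between libraries that share a replicate number. Libraries of different numbers were not compared in this way. SR-717 replicate 1 and PBS replicate 1, which stood apart on the first principal component, happen to share a number. These correlations therefore cannot show that the numbers mark true pairs. Compared within numbers, 9 of the 10 genes were lower under SR-717 in all 3 pairs, Sox6 being the exception, whereas 12.4% of all genes were. The matrix genes and Sox9 rose and fell with Col2a1 (r of 0.89 to 1.00 over the libraries). They are therefore not separate observations, and the count rests on 3 pairs. Col2a1 was lower by 4.09, 0.92 and 1.04 in log2 CPM for numbers 1, 2 and 3, that is 17.1-fold, 1.90-fold and 2.05-fold. Col9a3 was lower 13.9-fold, 2.05-fold and 2.06-fold, Col9a2 7.64-fold, 2.06-fold and 1.89-fold, and Col9a1 5.20-fold, 1.48-fold and 2.75-fold. Number 1 gave the largest difference for these chains, and the other pairs lay between 1.48-fold and 2.75-fold. Acan was lower 3.04-fold, 1.65-fold and 1.22-fold, while Col11a1 (1.46-fold, 1.14-fold and 1.60-fold) and Col11a2 (1.63-fold, 1.45-fold and 1.12-fold) moved less.

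With the replicate number as a block in the edgeR fit, 5 of the 10 genes passed the study's thresholds, all lower. Of all genes 0.718% passed them in that direction. Sox9 changed by -0.95 (standard error 0.23), Col9a1 by -1.46 (0.38), Col9a2 by -1.60 (0.46), Col9a3 by -1.85 (0.64) and Acan by -0.87 (0.30), all in log2. Their unadjusted p ran from 0.0096 for Sox9 to 0.036 for Acan, and their adjusted p was 0.999 (edgeR). Col2a1 had the greatest fall, by 1.93 on the log2 scale, but its standard error was 0.76 and it missed the threshold (unadjusted p = 0.053, adjusted p = 0.999, edgeR). Col11a1 (-0.47), Col11a2 (-0.47), Sox5 (-0.61) and Sox6 (-0.06) did not pass. By edgeR 0 genes of the table reached an adjusted p under 0.05 with or without the block (0 by DESeq2), and the blocked fit had 534 genes at an unadjusted p under 0.05 against 97 without it.

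Leaving out replicate 1 of both groups gave smaller but like-signed changes for 9 of the 10 genes. In the blocked fit of the remaining 2 pairs, Sox9 (-0.68), Col9a1 (-0.99), Col9a2 (-0.96) and Col9a3 (-1.02) passed the thresholds, which 0.254% of all genes passed in that direction. Acan was at -0.49 and Col2a1 at -0.96 (unadjusted p = 0.17 and 0.050, adjusted p = 1.00 for both, edgeR), and Sox6 was at 0.17. Without SR-717 replicate 1 alone and without the block, Col2a1 was at -0.15 and Col11a2 at 0.04, and the median of the 10 genes was -0.23.

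Sox9 and Sox5 were the members whose groups did not overlap in this comparison, where 2.26% of all genes were separate in that direction. For Sox9 the SR-717 libraries had 8.06, 20.4 and 20.1 CPM and the PBS libraries 22.4, 33.4 and 32.3 CPM, a lower mean by 1.81-fold. For Sox5 they had 2.07, 2.44 and 1.81 CPM against 3.71, 3.04 and 2.92 CPM, lower by 1.53-fold. Without the block the log2 fold changes were -0.86 (standard error 0.39) for Sox9 and -0.61 (0.27) for Sox5, with unadjusted p = 0.065 and 0.063 and an adjusted p of 1.00 for both in edgeR. DESeq2's Wald test put Sox9 past the thresholds (unadjusted p = 0.044, adjusted p = 1.00).

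**Figure D4:**
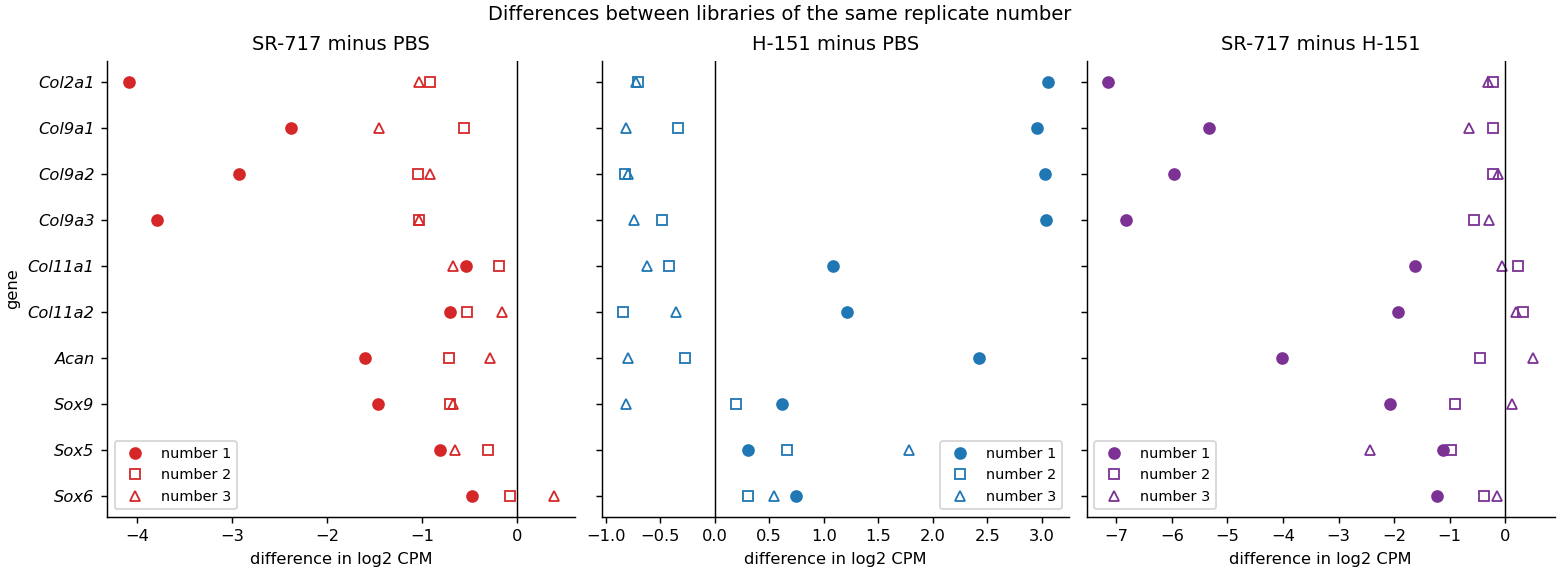
Difference in log2 CPM between libraries with the same replicate number (number 1 filled, 2 square, 3 triangle), for SR-717 minus PBS, H-151 minus PBS and SR-717 minus H-151, with the vertical line at no difference. In the first panel 9 of 10 genes lie below 0 in all 3 pairs, and in the second the matrix genes of number 1 lie above 0 while those of numbers 2 and 3 lie below it.

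Other cartilage matrix genes moved with them. Of a list of 19 (Comp, Matn1, Matn3, Cnmd and others), 18 were tested, and all had a lower fitted level under SR-717 (median log2 fold change -0.87). In all 3 pairs 14 were lower, as were 12.4% of all genes. None passed the thresholds without the block and 11 passed with it, all lower (0.718% of all genes passed in that direction). In the blocked fit without replicate 1 of both groups 10 of 19 passed as lower (0.254% of all genes). With the block Matn1, a matrilin of the cartilage matrix, changed by -2.36 (standard error 0.38) and Col27a1, a fibrillar collagen of cartilage, by -0.74 (0.14), with an adjusted p of 0.999 in edgeR. Col27a1 was at 49.5, 115 and 109 CPM in SR-717 against 90.1, 186 and 173 CPM in PBS replicates 1 to 3. Matn1 was at 0.0517, 7.79 and 1.34 CPM against 0.514, 25.7 and 10.1 CPM.

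Of 15 chondrocyte maturation genes, 14 were tested and 13 had a lower fitted level. With the block 5 passed, all lower (0.718% of all genes), among them Ihh (-1.79, standard error 0.44) and Col10a1 (-2.39, 0.80). In the blocked fit without replicate 1 of both groups 1 of the 15 passed, as lower (0.254% of all genes). The collagens that share chain families with these genes but dominate bone and skin, such as those of types I, III and V, had a median of -0.09 over 7 genes with 0 passing in either fit. Among 24 genes that process collagen and proteoglycan chains, 12 were lower in all 3 pairs (12.4% of all genes). For 7 of these 24 genes the SR-717 libraries lay wholly below the PBS libraries (2.26% of all genes). Loxl4, a lysyl oxidase, passed with the block (-0.83, standard error 0.23). Of 6 further SOX genes of the D, E and C groups none passed in either fit (median -0.12). Of 9 proteases of aggrecan and type II collagen and their inhibitor Timp3, 9 of the 10 genes were tested. Mmp8, a neutrophil collagenase, and the aggrecanase Adamts5 passed as higher with the block (1.73 and 0.64, standard errors 0.46 and 0.18), as did 2.43% of all genes. In the blocked fit without replicate 1 of both groups 1 of these 10 genes passed, and 0 of the 24 processing genes.

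Markers of other cells moved in the same pairs. The neutrophil genes summed to 14200, 3879 and 2548 CPM in SR-717 replicates 1 to 3 and to 3479, 2951 and 588 CPM in PBS. Of these genes 7 of 8 were higher in all 3 pairs, and 7 passed with the block, such as S100a8 (1.64, standard error 0.27). Of all genes 2.43% passed as higher with the block. Without replicate 1 of both groups all 8 kept a positive fitted difference, 3 of them passed with the block and 0 without it. The macrophage genes summed to 9078, 4189 and 3915 CPM against 5254, 3872 and 3235 CPM, with 6 of 8 higher in all 3 pairs and Adgre1 passing with the block, and 0 passing without replicate 1 of both groups. Of all genes 11.0% were higher in all 3 pairs. B lineage genes were higher in all 3 pairs for 5 of 7 tested, erythroid genes for 2 of 8, adipocyte genes for 1 of 6 tested and Schwann and glia genes for 0 of 8. With the block Igll1 of the B lineage and Adipoq of adipocytes passed as higher, and Ncmap of the Schwann and glia list as lower. Without replicate 1 of both groups 0 B lineage and 0 adipocyte genes passed. No neutrophil or macrophage marker was at 0 in any library. The osteoblast genes summed to 22607, 39976 and 45560 CPM against 29796, 39908 and 43424 CPM, and none passed. The part of these cells in the cartilage result was not tested.

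The comparison of H-151 with PBS asks the same of the inhibitor, and it shares the PBS libraries with the comparison above. Of the 10 genes Sox5 alone passed the thresholds (adjusted p = 1.00, edgeR), which 0.426% of all 14085 genes passed (0.263% higher). Its H-151 libraries had 4.61, 4.88 and 10.3 CPM and its PBS libraries 3.71, 3.04 and 2.92 CPM, without overlap, as in 1.56% of all genes. The log2 fold change was 1.03 (standard error 0.37, unadjusted p = 0.027, adjusted p = 1.00, edgeR), and 0.93 with the block, where 1.43% of all genes passed as higher. Without H-151 replicate 3 it was 0.56, and it no longer passed the thresholds, nor did it without PBS replicate 2 (1.00) or without PBS replicate 3 (0.96). Sox6 was higher in all 3 pairs too, with 0.50 in log2 (standard error 0.26) and 0.53 with the block (unadjusted p = 0.011, adjusted p = 1.00, edgeR), which is under 1.5-fold. Without PBS replicate 2 it was 0.82 and passed.

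The matrix genes showed no common direction between H-151 and PBS. Col2a1 was at 0.01 in log2 with a standard error of 0.79, and Sox9, Acan and the 5 other chains were between -0.19 and 0.24. By number, Col2a1 was higher by 3.06 in log2 CPM for number 1 and lower by 0.70 and 0.72 for numbers 2 and 3, and all 7 matrix genes had this pattern of signs. The difference of number 1 rested on PBS replicate 1, without which Col2a1 was at -0.49 and Col9a3 at -0.48. The neutrophil genes summed to 4696, 4578 and 1329 CPM in H-151 replicates 1 to 3, and 6 of 8 were higher than in PBS in all 3 pairs (10.1% of all genes), as were 7 of 8 erythroid, 6 of 8 B lineage, 5 of 8 Schwann and glia and 4 of 6 tested adipocyte genes. None of these passed without the block. With it 6 neutrophil, 6 erythroid, 2 B lineage and 3 adipocyte genes passed as higher (adjusted p = 1.00, edgeR), among them Ngp of neutrophil granules (0.98, standard error 0.18). Of all genes 1.43% passed as higher with the block. Of the remaining lists, Mmp13 (-0.69, standard error 0.25) and Sox11 (-0.82, 0.25) passed as lower with the block, as did 61 of all 14085 genes. Mmp8 (0.78, 0.17) and Tnmd passed as higher, and 0 of the 19 other cartilage matrix genes passed. Neutrophil genes were thus higher with the block in both comparisons with PBS, and 0 of 8 passed between SR-717 and H-151. The part of these cells in the values of the 10 genes was not tested.

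Between SR-717 and H-151 all 10 genes had a lower fitted level under SR-717, as did 46.6% of all 14151 genes, with a median of -0.91 in log2. Sox5 passed the thresholds (0.389% of all genes passed in that direction), at -1.65 with a standard error of 0.38 (unadjusted p = 0.0045, adjusted p = 0.996, edgeR). Its SR-717 libraries (1.81 to 2.44 CPM) did not overlap its H-151 libraries (4.61 to 10.3 CPM), as in 2.51% of all genes. The other 9 did not pass, and Sox9 (-0.92) did without H-151 replicate 3 (-1.18). Col2a1 was at -1.05 with a standard error of 1.27. By number it was lower 142-fold, 1.16-fold and 1.24-fold. Without SR-717 replicate 1 the median of the 10 genes was -0.41 and Col11a2 was at 0.21. In the other lists Nkx3-2, a factor that holds back chondrocyte maturation (-1.42, standard error 0.47), Tnmd of tendon (-0.86, 0.34) and the B cell gene Ms4a1 (-1.57, 0.63) passed. Of these Nkx3-2 and Ms4a1 were near the floor. Nkx3-2 lay at 0.155 to 0.409 CPM in SR-717 and 0.556 to 0.937 CPM in H-151, and Ms4a1 at 0.155 to 0.610 and 0.556 to 1.23 CPM. With the block Tnmd and Ms4a1 still passed, and Nkx3-2 did not. Matn3 and Col27a1 of the cartilage matrix list then passed as lower, as did 55 of all 14151 genes. Krt5 and Krt14 of keratinocytes passed as higher with the block, as did 88 genes, but both lay near the floor, at 2.57 CPM or below.

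The deposited counts and TPM also give the gene length that the authors' estimate assumed in each library, since a count divided by its TPM is proportional to it. Over 12083 genes with at least 30 counts in every library this length varied by a median of 1.04-fold between libraries. For Sox9, Col2a1, Col9a2 and Col9a3 it was constant within 1.01-fold. It varied 1.15-fold for Col9a1 and Acan, 1.30-fold for Col11a1, 1.73-fold for Sox6 and 3.59-fold for Sox5, a range matched by 0.108% of genes. The annotated coding transcripts of Sox5 run from 614 to 7243 bases and those of Sox6 from 331 to 8668 bases. In H-151 replicate 3 the length of Sox5 was 0.401 of its median library, so the 8.64 TPM of that library correspond to 10.3 CPM, 2.23-fold above the lowest H-151 library in CPM against 4.54-fold in TPM. An exon of Sox5 shares 1330 bases with the antisense gene Sox5os1, and whether the counting used strand is not given in the sources used here.

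**Figure D5:**
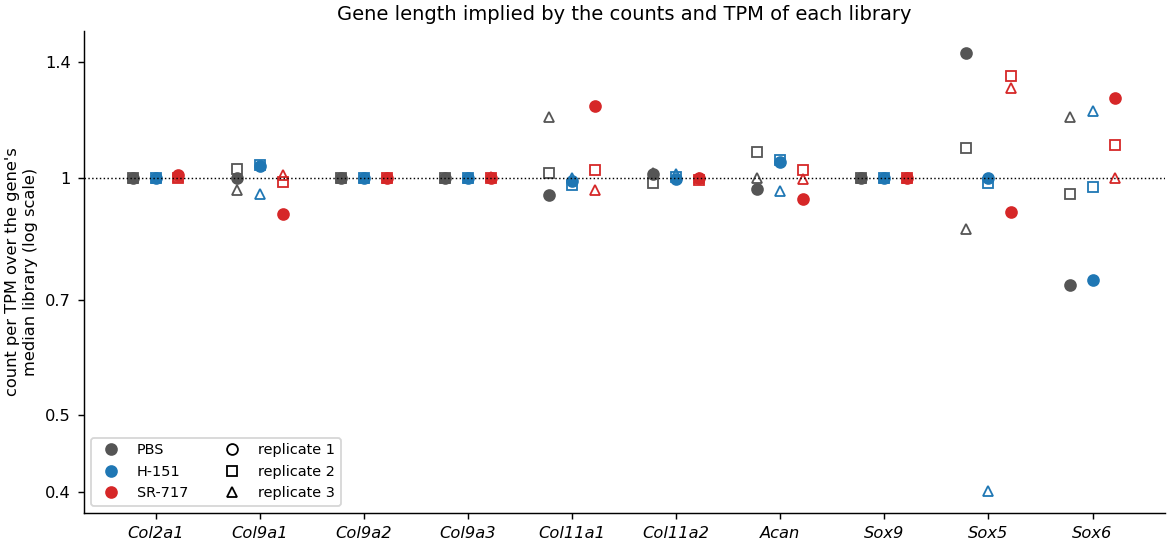
Count divided by TPM, relative to the gene's median library (log scale, dotted line at 1), in each library, with PBS in grey, H-151 in blue, SR-717 in red and replicate 1 filled. Sox9, Col2a1, Col9a2 and Col9a3 stay at 1, while Sox5 runs from 0.401 in H-151 replicate 3 to 1.44 and Sox6 from 0.730 to 1.26.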

How the data were processed

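For each gene and library the authors' table gives expected counts, deposited without normalization, and TPM values that they scaled for gene length and library total. The submitters' processing notes name the build mm10, and the aligner and counting program are not given in the sources used here. Libraries were assigned to groups and numbers by the labels. The members and gene lists were chosen with earlier results of these data known. Genes named outside the 10 are genes of the other lists that passed the thresholds (up to 4 with the smallest p per comparison) and the genes with the highest r, of which 1 is not reported here. Genes of the blocked fit and of these lists whose values are given besides were picked after their values were seen.

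Expected counts were rounded and tested with edgeR 4.0.16 in R 4.3.3 on the 6 libraries of a comparison (filterByExpr with a count of 10 and a total of 15, TMM, glmQLFit, glmQLFTest, Benjamini-Hochberg adjustment over all genes tested). All 10 genes passed the filter. Calls used the cutoffs named in the study, p under 0.05 and a change of 1.5-fold, with p unadjusted. CPM used the TMM factors of all 9 libraries, and log2 CPM a prior count of 2. Standard errors came from the F statistic. The test was tried on simulated data.

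Replicate numbers come from the labels, which do not say what they stand for. Deviations from group means correlated between same-numbered libraries by 0.65, 0.34 and 0.14 (SR-717 and PBS) and 0.30, 0.49 and 0.50 (H-151 and PBS). The blocked fit is given beside these results for that reason. No correlation between libraries of different numbers was taken as a baseline, so whether the numbers mark pairs was not tested. No 2 libraries were alike within sampling noise. Gene models come from GENCODE M21 (GRCm38). Alternatives were DESeq2 1.42.0 size factors and Wald test, no filter, a mean count of 50, all 9 libraries in 1 fit, the block, and each library left out. Untreated calluses, histology and cell culture are not analysed here.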

Additional observations from a re-analysis of the deposited data

How the results depend on the processing

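Every edgeR alternative had 0 genes at an adjusted p under 0.05, and DESeq2 had 1, in SR-717 against H-151. Genes past the unadjusted threshold and 1.5-fold numbered 73 for SR-717 against PBS, and 138 by DESeq2's Wald test, 194 with no filter, 37 with a mean count of 50, 176 with all 9 libraries in 1 fit and 95 to 319 with a library left out. For H-151 against PBS they numbered 60, and 127 with no filter, 28 with a mean count of 50 and 43 to 698 with a library left out. For SR-717 against H-151 they numbered 107, and 209, 223, 61, 171 and 64 to 661 in the same order as for PBS. Of the 10 genes, SR-717 against PBS had 0 past the thresholds, 1 by DESeq2 and 0 in each fit without 1 library, H-151 against PBS had 1 and 0 to 1 with a library left out, and SR-717 against H-151 had 1 and 1 to 2. The cause of these moves was not tested.

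In the blocked fit 443 genes and 5 of the 10 passed for SR-717 against PBS and 262 genes for H-151 against PBS, where Col9a2 turned to 0.303 and Col11a1 to 0.0032 in log2. For SR-717 against H-151, whose numbers correlated by 0.34, 0.06 and 0.08, the block gave 143 genes and Sox5 alone of the 10. Without replicate 1 of both groups, an alternative chosen after seeing the data, SR-717 against PBS had 118 genes with 1 of the 10 (Sox9), and 135 with 4 of the 10 under the block, and Sox6 turned to 0.127 and 0.168.

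Leaving out 1 library turned the sign of small values, given here as log2 ranges. For SR-717 against PBS, Sox6 ran from -0.29 to 0.27 and Col11a2 from -0.78 to 0.039. For H-151 against PBS, Sox9 ran from -0.15 to 0.31, Acan from -0.18 to 0.84, Col2a1 from -0.49 to 0.89, Col9a1 from -0.41 to 0.63, Col9a2 from -0.66 to 0.69, Col9a3 from -0.48 to 0.89, Col11a1 from -0.44 to 0.21 and Col11a2 from -0.57 to 0.18. For SR-717 against H-151, Col11a2 ran from -0.51 to 0.21. Among log2 ratios of TPM, Col9a1 to Col9a2 ran from -0.10 to 0.51 (SR-717 against PBS), -0.065 to 0.23 (H-151 against PBS) and -0.21 to 0.39 (SR-717 against H-151), Col11a1 to Col11a2 from -0.25 to 0.15 and -0.12 to 0.28 in the first 2 of these, Acan to Col2a1 from -0.39 to 0.25 for H-151 against PBS and Sox5 to Sox9 from -0.35 to 0.66 for SR-717 against PBS. The r of Sox5 with Col2a1 ran from -0.018 to 0.44. Depth limited none of the matrix genes, whose lowest count in a library was 59, and Sox5 had 31.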
